A study of Mus musculus with 830 samples.

Results

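Neurog3-high, Fev-low endocrine progenitors were the cells of the embryonic mouse endoderm with high Neurog3 messenger RNA and with Fev and glucagon messenger RNA under set limits. Neurog3, also written Ngn3, encodes the transcription factor that commits endoderm cells to the hormone-producing (endocrine) fate of the pancreas and gut. Cells with at least 100000 reads were taken, and members were chosen by measured levels in CPM, a gene's read count scaled to the same total in every cell: Neurog3 at 100 CPM or more, Fev under 50 CPM and Gcg, the glucagon gene, under 2000 CPM. The rule found 143 cells among 713 with that depth, out of 830 cells in all. Each cell was profiled singly with Smart-seq3xpress, a plate-based RNA-sequencing method, after trypsin dissociation, staining for the epithelial surface protein EpCAM and flow sorting that left out dead cells with DAPI. All embryos came from the cross C57BL/6XC3H and the tissue of every cell is given as Endoderm. Cells labelled Ngn3Cre had the genotype Ngn3-Cre; Ai6: a recombinase driven from Neurog3 regulatory sequence, and a fluorescent reporter that it switches on for good, so that descendants stay marked. Cells labelled HZ carried Ngn3-GFP/+, with the green fluorescent protein on 1 Neurog3 allele, and cells labelled HM carried Ngn3-GFP/GFP, with it on both. Age is given as the number of somites, the paired blocks of the embryo's trunk, and the cells came from embryos of 15, 18, 21, 24 and 27 somites. The labels do not say whether the sort used the reporter, how many embryos were pooled or what the mark shared by all titles (b2) stands for.

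Neurog3 is a basic helix-loop-helix factor that is switched on briefly and is then shut down again. As background, its protein activates Neurod1, Pax4, Insm1 and Nkx2-2, pushes cells out of the cell cycle, and raises Notch ligands on the cell, which keep neighbouring cells undecided through the Notch target Hes1. In pancreatic endocrine differentiation, cells with high Neurog3 pass into a later precursor state marked by the transcription factor Fev before they turn on hormone genes. In the early pancreas of the mouse most of the first endocrine cells make glucagon.

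The class held 77 of 281 HZ cells (27.4%, 95% exact binomial interval 22.3 to 33.0) and 66 of 289 Ngn3Cre cells (22.8%, 18.1 to 28.1). None of the 143 deep HM cells met the rule, which allows a share of up to 2.1% by the floor of 3 cells (exact binomial upper limit 2.55%). Neurog3 is the gene that the GFP allele replaces and is also the gene of the rule, so the absence from HM embryos follows from the choice of cells. These intervals cover counting error only, since the cells of a pool share embryos. Within HZ the share was 29.2% at 18 somites (14 of 48 cells, 17.0 to 44.1), 34.1% at 21 somites (45 of 132, 26.1 to 42.8), 18.3% at 24 somites (13 of 71, 10.1 to 29.3) and 15.4% at 27 somites (4 of 26, 4.36 to 34.9). Within Ngn3Cre it was 41.6% at 21 somites (37 of 89, 31.2 to 52.5), 14.7% at 24 somites (20 of 136, 9.22 to 21.8) and 12.7% at 27 somites (8 of 63, 5.65 to 23.5). Among these pools the share at 21 somites was the highest in both genotypes; HZ at 15 somites (1 of 4 cells) and Ngn3Cre at 18 somites (1 of 1) held too few cells for a share. Its interval lay clear of those at 24 and 27 somites in Ngn3Cre and overlapped them in HZ. A sort on the reporter, if there was one, would set these shares.

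**Figure D1:**
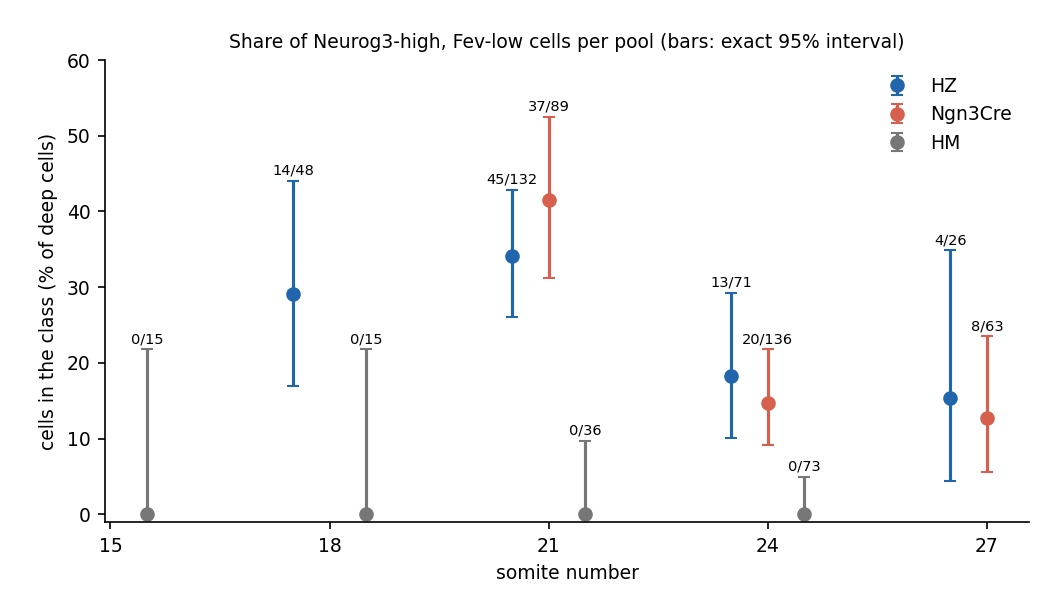
Share of deep cells (percent, y axis) that were Neurog3-high and Fev-low, by somite number (x axis, the genotypes set slightly apart), for pools with at least 5 deep cells. Points are pools and bars are 95% exact binomial intervals. Both HZ and Ngn3Cre were highest at 21 somites, at 34.1% and 41.6%, and all HM pools were at 0.

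Few cells lay near the limits of the rule. The members with the least Neurog3 had 104, 107 and 107 CPM, and the cells left out by that limit alone that came closest had 92.0, 91.8 and 83.3 CPM. For Fev the closest members had 45.2, 42.9 and 32.1 CPM and the closest cells outside had 57.6, 60.6 and 63.9 CPM. For Gcg the closest members had 970, 505 and 393 CPM, and the closest outside had 2760 and 8824 CPM. Of 191 deep cells with Neurog3 at 100 CPM or more, 44 were left out for Fev and 4 for Gcg, and 108 of the 143 members had no Fev read at all. A limit of 50 CPM for Neurog3 gave 159 cells, 1 of them from an HM embryo, and a limit of 200 CPM gave 110.

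The class carried the genes it is named for. The 4 marker genes lie on the mouse build GRCm38 at chr10:62133090-62134763 (Neurog3, plus strand), chr2:79452521-79456751 (Neurod1, minus strand), chr6:28442334-28449353 (Pax4, minus strand) and chr13:97241105-97253034 (Enc1, plus strand), and all 4 are protein-coding. Neurog3 ran from 104 to 3034 CPM per cell with a median of 473 CPM, by the rule. Enc1, which encodes a kelch-family protein that binds actin, was at 10 CPM or more in 131 of 143 cells (91.6%), with a median of 668 CPM. Neurod1, a helix-loop-helix factor that acts after Neurog3, was found at that level in 125 cells (87.4%) with a median of 307 CPM. Pax4, a paired-homeobox factor of beta and delta cell development, was found in 95 cells (66.4%) with a median of 60.5 CPM. The sorted surface protein's gene Epcam was found in 142 of 143 cells, with a median of 570 CPM. These values describe the cells and are not a test, because the same data proposed the markers.

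The marker genes did not come on as a block in each cell. All of Neurod1, Pax4 and Enc1 were at 10 CPM or more in 80 of 143 cells (55.9%, 47.4 to 64.2), and no member lacked all 3. Cells with Enc1 and without Pax4 numbered 45, against 9 with Pax4 and without Enc1. Every HZ cell in the pools of 18, 21, 24 and 27 somites had Enc1 (14 of 14, 45 of 45, 13 of 13 and 4 of 4), against 31 of 37, 15 of 20 and 7 of 8 Ngn3Cre cells at 21, 24 and 27 somites. Sox9, a factor of undifferentiated pancreatic and gut epithelium, was found together with Neurod1 in 34 cells. Mki67, a gene of dividing cells, was found in 15 cells, and Hes1, the Notch target, in 23. Cdkn1a, which encodes the cell-cycle inhibitor p21, was found in 142 cells with a median of 1460 CPM. Ghrl, the ghrelin gene, ranged widely, with a median of 782 CPM, 64 cells at 1000 CPM or more, 20 cells at 10000 CPM or more and a maximum of 90496 CPM.

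**Figure D2:**
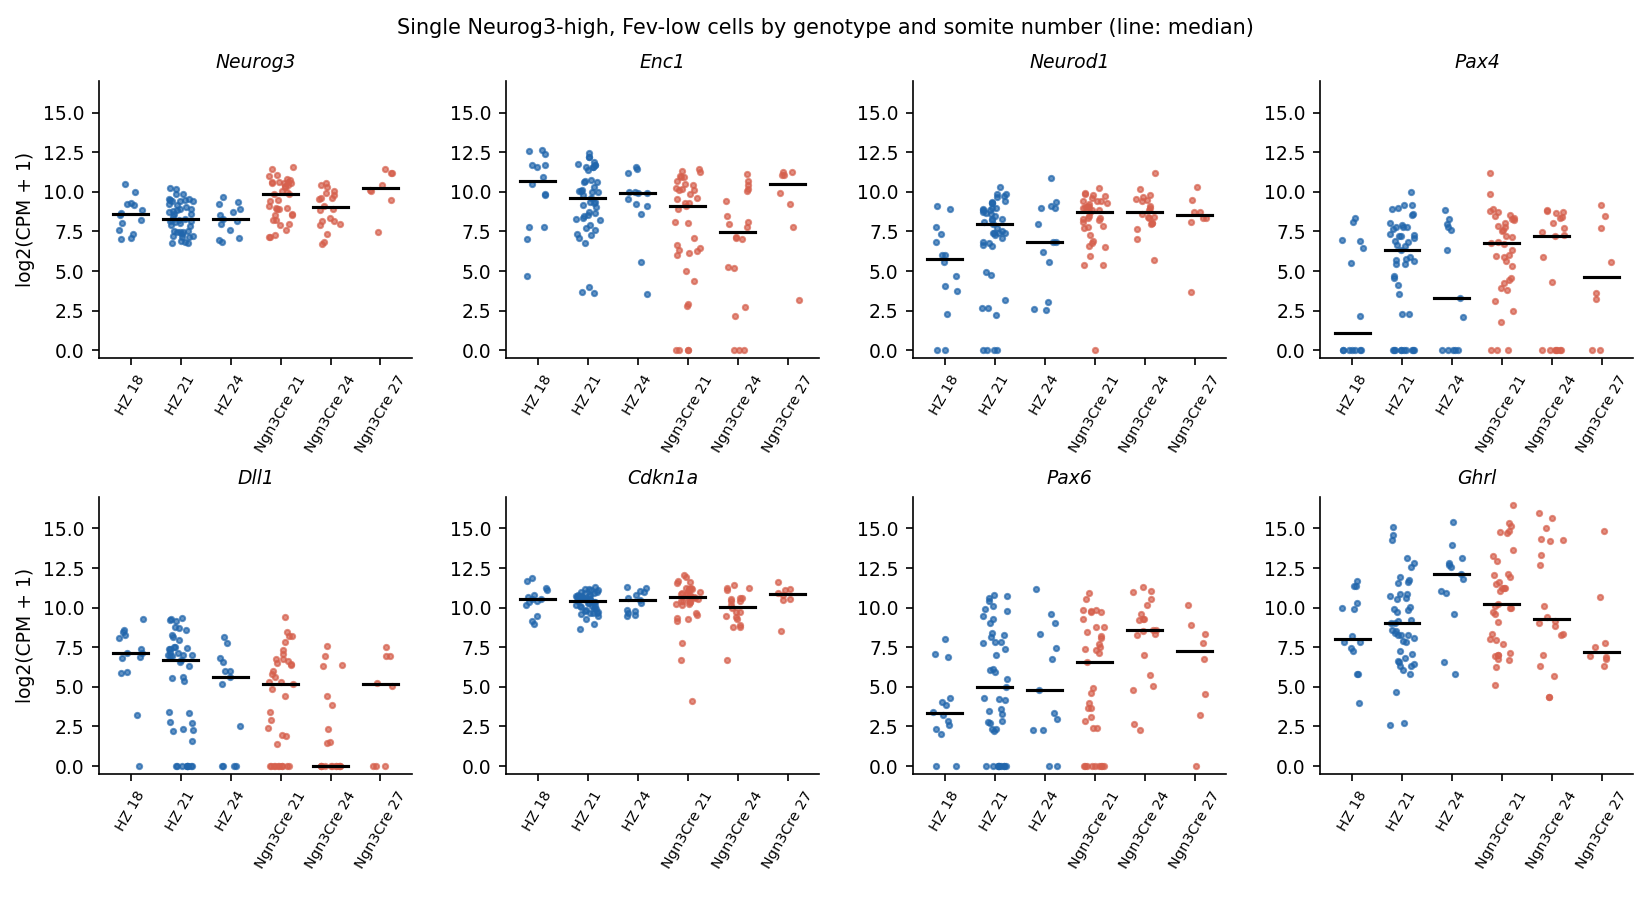
Levels of 8 genes in single members (y axis, log2(CPM + 1)) by pool of at least 5 members (x axis, genotype and somite number), with 1 point per cell, spread sideways for legibility, and a line at the pool's median. Cdkn1a is high in nearly every cell, whereas Pax4 and Dll1 have cells with and without reads in each pool, Pax6 in each but Ngn3Cre at 24 somites, and Ghrl reaches 90496 CPM.

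Along the range of Neurog3 itself, 51 cells had 100 to 300 CPM, 59 had 300 to 1000 CPM and 33 had 1000 CPM or more. The 3 ranges were not alike in genotype, with 36, 36 and 5 HZ cells, nor in depth, with medians of 373920, 418140 and 482060 reads, and the part of either in what follows was not tested. From the lowest to the highest range the median of Enc1 was 306, 771 and 1094 CPM, that of Cdkn1a 1116, 1440 and 1923 CPM, and that of Dll1, a Notch ligand, 13.4, 61.7 and 79.2 CPM. Pax6, a paired-homeobox factor of hormone-producing cells, had medians of 130, 17.2 and 22.8 CPM. Pax4 had 58.4, 24.7 and 197 CPM, and Neurod1 309, 218 and 425 CPM. The medians of Enc1, Cdkn1a and Dll1 thus rose from range to range. Pax4 and Neurod1 also had their highest medians in the cells with most Neurog3, but their lowest in the middle range. Pax6 had its highest in the cells with least. From cell to cell, however, Dll1 and Pax6 hardly followed Neurog3 (Spearman's rho 0.12 and -0.087).

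Genes whose level followed Neurog3 from cell to cell did so weakly. Over the 143 cells and 5812 genes found at 10 CPM or more in at least 50% of them, Spearman's rho with Neurog3 was highest for 2010107G23Rik (0.43), Rph3al (0.41), Cbfa2t2 (0.40), Nkx2-2 (0.37), Elovl1 (0.36), Cecr2 (0.34), Smarcd2 (0.33), Zc3h12c (0.33), Nhlh1 (0.33) and Katnbl1 (0.32). The median gene had 0.023 and the lowest -0.31. Rph3al encodes an effector of Rab GTPases in granule release, Cbfa2t2 a transcriptional corepressor, Nkx2-2 a homeobox factor of endocrine development and Nhlh1 a helix-loop-helix factor. Within the 45 HZ cells of 21 somites the rho of Cbfa2t2 was 0.39 and within the 37 Ngn3Cre cells of that stage 0.55. In the same groups 2010107G23Rik had 0.0020 and 0.39, and Nkx2-2 had 0.23 and 0.20. The cells share pools and differ in depth, and reads per cell had a rho of 0.25 with Neurog3. Enc1 had 0.28, Cdkn1a 0.27, Btg2 0.23, Dll1 0.12, Pax4 0.10, Neurod1 0.091, Pax6 -0.087 and Ghrl -0.11. Thus 2 of the 3 other marker genes, Pax4 and Neurod1, hardly followed Neurog3 among cells that already had it.

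The start sites of Neurog3, Nkx2-2 and Cbfa2t3 are shown with the 250 bases before them, on RefSeq's GRCm38.p6. Nkx2-2 followed Neurog3 weakly among the cells, and Cbfa2t3 was higher in this class than in both classes compared below. Of the 12 windows looked up, only the 2 shown for these genes held the letters in capitals, and they do not stand for the rest. Capitals mark CAGATG or, read on the other strand, CATCTG, a form of the E-box that helix-loop-helix factors bind. The windows are chr10:62132840-62133089 (plus strand), chr2:147186403-147186652 (minus strand) and chr8:122699110-122699359 (minus strand, 1 of the gene's start sites), each read 5′ to 3′ along the gene.
Neurog3: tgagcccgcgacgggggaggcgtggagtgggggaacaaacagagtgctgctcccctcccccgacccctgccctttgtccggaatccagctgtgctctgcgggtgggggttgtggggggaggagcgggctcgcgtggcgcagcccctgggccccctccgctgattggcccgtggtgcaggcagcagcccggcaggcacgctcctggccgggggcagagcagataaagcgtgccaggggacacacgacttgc
Nkx2-2: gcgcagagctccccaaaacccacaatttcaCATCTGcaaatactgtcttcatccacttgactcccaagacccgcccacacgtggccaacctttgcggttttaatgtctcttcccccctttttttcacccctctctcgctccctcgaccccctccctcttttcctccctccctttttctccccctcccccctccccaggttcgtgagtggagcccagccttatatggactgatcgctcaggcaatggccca
Cbfa2t3: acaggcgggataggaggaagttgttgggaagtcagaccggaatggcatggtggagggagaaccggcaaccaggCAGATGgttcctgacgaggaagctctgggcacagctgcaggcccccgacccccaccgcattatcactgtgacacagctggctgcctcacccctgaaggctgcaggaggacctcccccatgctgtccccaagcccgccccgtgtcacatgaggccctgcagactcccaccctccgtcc
The motif began 220 bases before the start of Nkx2-2 and 177 bases before that of Cbfa2t3, and was not in the window of Neurog3. Of 13 genes looked up, 9 had a window and 2 of these, Nkx2-2 and Cbfa2t3, held the motif, in 2 of 12 windows. Dll1 and Cdkn1a, also higher in this class than in both classes compared below, had no window with it. Among all 32841 windows of that length 14.45% held it, and 66.23% held the general form CANNTG, which includes it. A match of letters is a description of the window and no evidence of binding.

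To set the class against its neighbours, the reads of its cells were summed within each pool, that is, each genotype and somite number, because the labels name no embryos and cells of 1 pool are not replicates. Pools with at least 5 cells of a class were used. The members' own depth ran from 102373 to 1367607 reads, with a median of 419082 reads and 7357 genes per cell. Fev-positive precursors (Fev at 50 CPM or more, Gcg under 2000 CPM, 74 cells) had a median of 448240.5 reads, and Pdx1-positive, Neurog3-low progenitors (Pdx1 at 20 CPM or more, Neurog3 under 10, Fev under 50 and Gcg under 2000 CPM, 47 cells) one of 637740 reads. Tests were made with edgeR's quasi-likelihood method over all genes with enough reads, with Benjamini-Hochberg adjusted p under 0.05 as the threshold, and their p-values measure the spread between stages and genotypes rather than between embryos. Levels are CPM of the summed reads, given as mean ± SD over pools, and a higher sum can come from more cells with the gene or from more reads in each.

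Against Fev-positive precursors, the class was higher in the Notch ligand Dll1, the p21 gene Cdkn1a and the keratin gene Krt7. It was lower in Pax6, Chgb and Pyy, genes of hormone-producing cells, while the hormone gene Ghrl was called higher. The Pyy call was lost in 3 and the Ghrl call in 4 of the 5 fits that left out 1 pool. The order of the classes in time was not tested. The comparison paired 123 cells with 70 precursors in 5 pools (HZ at 21 and 24 somites, Ngn3Cre at 21, 24 and 27 somites), each pool compared with itself. Of 13641 genes tested, 71 were higher (0.52%) and 52 lower (0.381%), 0.902% in all. Neurog3 was at 808 ± 459 CPM (SD, n = 5) against 314 ± 113, Enc1 at 1010 ± 334 against 152 ± 86.8, Neurod1 at 410 ± 102 against 696 ± 198 and Pax4 at 154 ± 41.9 against 185 ± 43.1; these genes and Fev and Gcg defined or proposed the classes and were not tested. When 1 pool was left out, the counts were 32 higher and 40 lower without HZ 21, 39 and 37 without HZ 24, 23 and 27 without Ngn3Cre 21, 30 and 38 without Ngn3Cre 24, and 48 and 46 without Ngn3Cre 27. Leaving out every cell with 3 or more of 12 neural and neural crest markers at 10 CPM, which removes 74 of the 143 members, left 7 higher and 9 lower. Of the genes described below, Dll1, Acsl1, Amotl2, 4933415A04Rik, Pax6, Chgb, Pak3 and Lrpprc passed in that fit too.

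**Figure D3:**
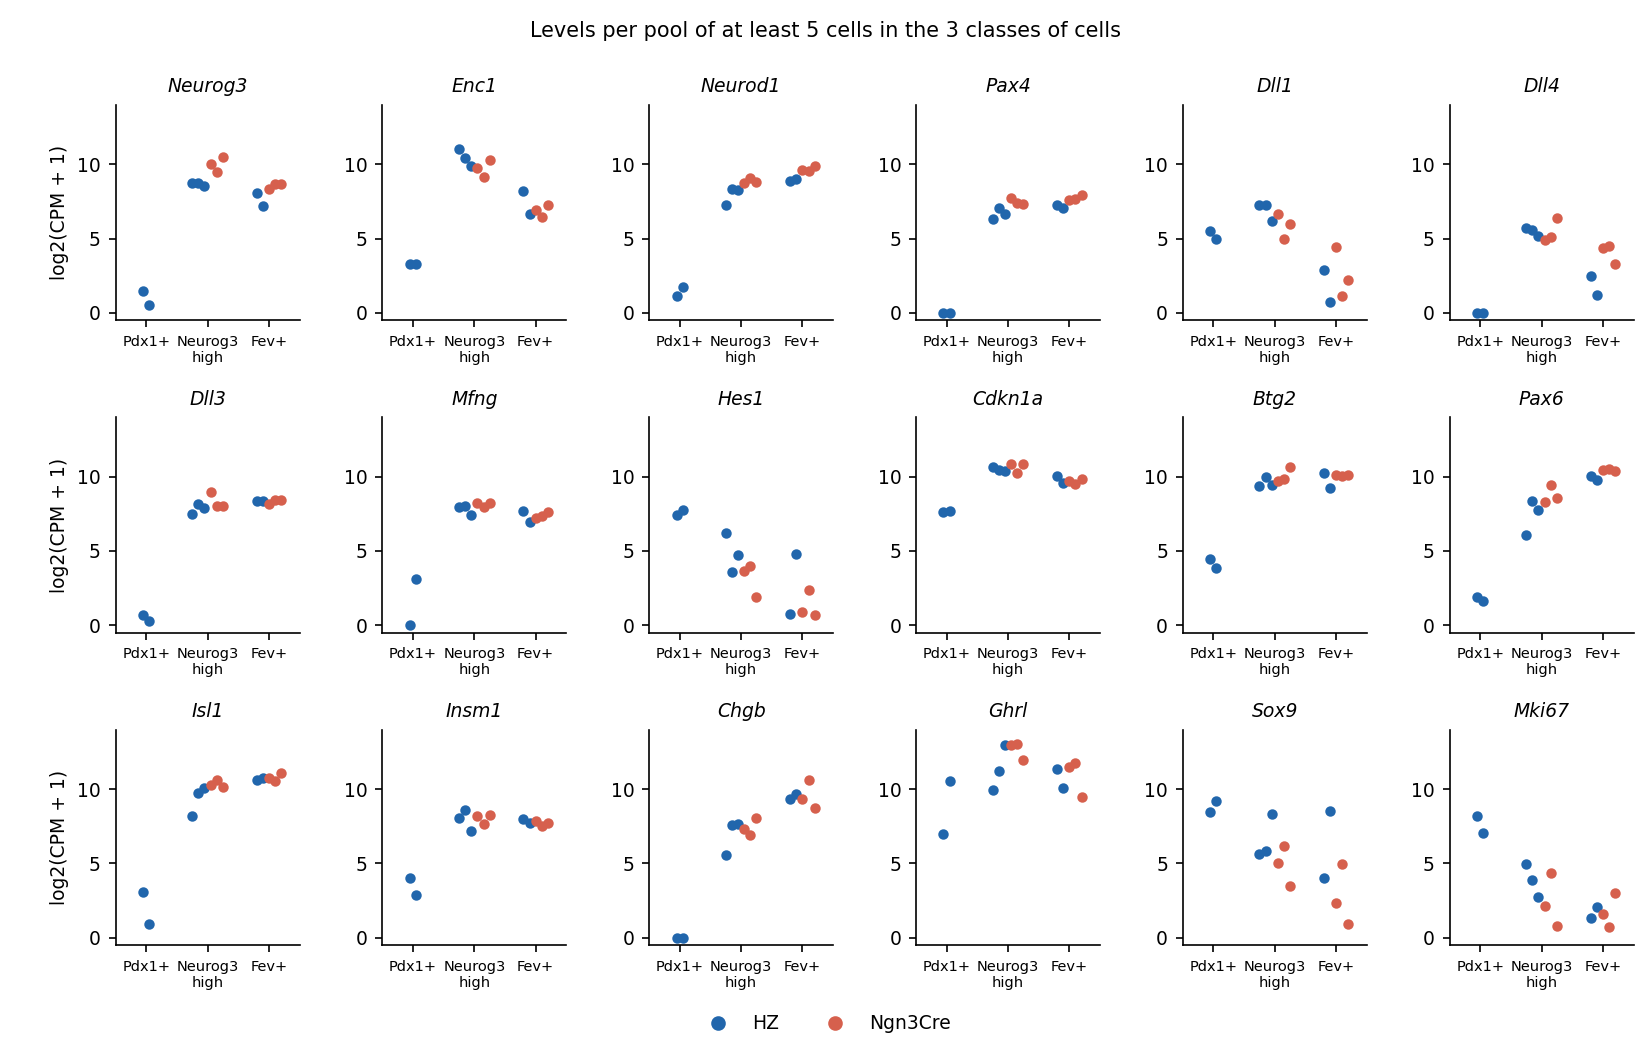
Level of 18 genes per pool (y axis, log2(CPM + 1) of summed reads) in Pdx1-positive, Neurog3-low progenitors, Neurog3-high, Fev-low cells and Fev-positive precursors (x axis), 1 point per pool of at least 5 cells and coloured by genotype, with stages from left to right within each genotype. Dll1, Cdkn1a and Pax6 do not overlap between the Neurog3-high cells and the precursors, and Sox9, Hes1 and Mki67 are higher in both progenitor pools than in every pool of Neurog3-high cells.

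Among the Notch genes, 1 of 18 tested was higher, Dll1 (chr17:15367354-15376872, minus strand), and none was lower. Dll1 was at 151 and 73.5 CPM in the HZ pools of 21 and 24 somites and at 99.7, 30.0 and 63.3 CPM in the Ngn3Cre pools of 21, 24 and 27 somites, against 6.36, 0.643, 20.8, 1.24 and 3.76 CPM in the Fev-positive precursors of the same pools. Every pool of the class lay above every pool of precursors. The fitted difference was 4.20 ± 0.50 on the log2 scale (SE, edgeR adjusted p = 0.00117), and it passed under each of the 13 alternatives run for this comparison. By cell, Dll1 was at 10 CPM or more in 84 of 143 members and in 11 of 74 precursors. Dll4, a ligand of the same family, was at 45.4 CPM on average against 11.3, a log2 difference of 2.37 that missed the threshold (edgeR adjusted p = 0.105). Hes1, at 13.1 against 6.66 CPM, was not distinguished either (adjusted p = 0.287). The median log2 difference of the 18 Notch genes was 0.36, beside 0.049 over all genes tested.

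Of the factors known from the Neurog3 state, 2 of 18 were higher, 1 was lower, and the median log2 difference was 0.24. Cbfa2t3, a transcriptional corepressor, was at 284, 198, 178, 108 and 155 CPM in the class, in the pool order given for Dll1, and at 69.4, 57.3, 51.7, 80.0 and 48.7 CPM in precursors, without overlap (1.55 ± 0.24 log2, edgeR adjusted p = 0.00632). Sox11, a high-mobility-group factor of immature cells, was higher by 0.80 ± 0.15 (adjusted p = 0.0196), a call lost without HZ 21, HZ 24, Ngn3Cre 24 or Ngn3Cre 27 (0.69 to 0.91 log2 when 1 pool was left out). The lower one was St18, a zinc-finger factor, at -1.11 ± 0.21 (adjusted p = 0.0225), lost without HZ 24, Ngn3Cre 21 or Ngn3Cre 24 (-1.28 to -0.89). Insm1, a zinc-finger factor that Neurog3 is known to activate, was at 265 ± 93.9 against 216 ± 23.8 CPM and did not pass (0.22 log2, adjusted p = 0.764).

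Later endocrine factors fell on the other side. Of 18 tested, 4 were lower in the class, 1 was higher and the median was -0.56. Pax6 (chr2:105668900-105697364, plus strand) was at 335, 219, 309, 710 and 379 CPM in the class and at 1069, 867, 1374, 1449 and 1332 CPM in precursors. The highest class pool, Ngn3Cre at 24 somites, lay under the lowest precursor pool, and the difference was -1.73 ± 0.15 log2 (edgeR adjusted p = 0.000384). It was seen in 89 of 143 members, with a median of 43.5 CPM, and in 73 of 74 precursors, with a median of 1170 CPM. Hmgn3, a chromatin protein, fell by 1.00 on the log2 scale (SE 0.14, adjusted p = 0.00427), Mlxipl, a glucose-sensing transcription factor, by 2.18 (-2.18 ± 0.31, adjusted p = 0.00427), and Pou3f4, a POU-homeobox factor, by 1.94 (-1.94 ± 0.30, adjusted p = 0.00678; -2.21 to -1.63 when 1 pool was left out, with the call lost without Ngn3Cre 21). The member that was higher was the forkhead factor Foxa3 (1.22 ± 0.21, adjusted p = 0.0141; 1.13 to 1.35, lost without HZ 21 or HZ 24). Isl1, a homeobox factor of endocrine cells, did not pass, at 1170 ± 263 against 1725 ± 251 CPM (adjusted p = 0.0744).

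Genes of hormone processing and secretory granules were lower for 3 of 23, higher for none, and had a positive difference for only 2 of 23, with a median of -0.60. Chgb, which encodes the granule protein secretogranin-1, was at 190, 198, 160, 120 and 259 CPM in the class and at 656, 822, 638, 1596 and 430 CPM in precursors. The groups did not overlap, the spread among precursor pools was wide, and the difference was -2.04 ± 0.30 log2 (edgeR adjusted p = 0.00457). The other members that passed were Pcsk2, a prohormone convertase (-1.25 ± 0.25, adjusted p = 0.034), and Gpr119, a receptor of hormone-secreting cells (-1.53 log2). The Pcsk2 call was lost without HZ 21, HZ 24, Ngn3Cre 21 or Ngn3Cre 27 (-1.52 to -1.01) and the Gpr119 call without Ngn3Cre 21 (-1.78 to -1.25). Chga had a difference of -1.13 and missed the threshold (adjusted p = 0.0549).

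Among peptide hormones 1 of 12 was higher and 2 were lower. Pyy, peptide YY, was at 495, 1271, 1073, 1369 and 123 CPM in the class and at 2058, 3980, 2442, 2034 and 2515 CPM in precursors, again without overlap (-1.88 ± 0.38 log2, edgeR adjusted p = 0.0329), although the call was lost without HZ 21, HZ 24 or Ngn3Cre 21 (-2.24 to -1.36). Gip had no read in the class and 358 reads in precursors, so it was at least 186-fold lower when 3 reads over the group are taken as the floor, with the precursor pool HZ 24 at 81.7 CPM and the others between 0 and 6.43 CPM. Its call was lost without HZ 24 or Ngn3Cre 21, and Gip then still had no read in the class. Ghrl was at 2409, 7953, 8039, 8436 and 3983 CPM in the class and at 2587, 1098, 2925, 3457 and 690 CPM in precursors, higher in 4 of 5 pools (1.62 ± 0.31 log2, adjusted p = 0.0225). The Ghrl call was lost without HZ 24, Ngn3Cre 21, Ngn3Cre 24 or Ngn3Cre 27 (1.29 to 2.03) and lost in 9 of the 13 alternatives.

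Of 15 genes of cell-cycle exit, 1 was higher, Cdkn1a (chr17:29090976-29100727, plus strand). It was at 1389, 1342, 1853, 1223 and 1830 CPM in the class and at 1071, 754, 851, 729 and 913 CPM in precursors, so that the lowest class pool stood above the highest precursor pool. The difference was 0.82 ± 0.11 log2 (edgeR adjusted p = 0.00355). Btg2, an antiproliferative gene, was at 1014 ± 363 against 1013 ± 229 CPM and did not differ detectably (-0.026 log2, adjusted p = 0.984). No gene of the S phase list (20 tested) or of the list of the G2 and M phases (22 tested) passed, although 19 of the 22 had a positive difference and the median was 1.42. The summed level of the 22 genes was 482, 183, 170, 858 and 147 CPM in the class and 91.9 to 152 CPM in precursors. It exceeded that range in all pools but Ngn3Cre at 27 somites, and it was highest where 24-somite Ngn3Cre cells were summed.

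Genes of epithelial adhesion were higher for 4 of 20 and lower for 1, with a median of 0.54. Krt7, a keratin of ductal and gut epithelium, was at 1754, 1446, 1635, 1295 and 1359 CPM in the class and at 1148, 900, 743, 760 and 778 CPM in precursors, without overlap (0.80 ± 0.10 log2, edgeR adjusted p = 0.00199). Cldn6, a tight-junction protein of embryonic epithelium, was higher by 0.95 ± 0.13 (adjusted p = 0.00352), whereas Cldn4, a related claudin, was lower, at 282 ± 54.5 against 752 ± 184 CPM (-1.40 ± 0.13, adjusted p = 0.000418). Krt19 (0.89 ± 0.16) and the integrin gene Itga6 (1.11 ± 0.20) also passed, and lost the call without HZ 21, Ngn3Cre 21 or Ngn3Cre 24 (Krt19, 0.79 to 0.97) and without HZ 21, Ngn3Cre 21 or Ngn3Cre 27 (Itga6, 1.01 to 1.25). Epcam (0.47, adjusted p = 0.225) and Cdh1, E-cadherin (1.04, adjusted p = 0.101), did not pass. Of 24 genes of delamination and the neuronal cytoskeleton, 4 were higher, 1 was lower and the median was 0.48. Amotl2, which links cell junctions to actin, was at 165, 77.5, 95.9, 87.6 and 143 CPM against 38.5, 22.2, 10.1, 8.65 and 0.578 CPM (3.27 ± 0.59, adjusted p = 0.0182; 2.63 to 3.66, lost without Ngn3Cre 21 or Ngn3Cre 24). The lower member was Pak3, a kinase of the cytoskeleton (-1.37 ± 0.17, adjusted p = 0.00198), which passed under all 13 alternatives. Tubb3, Nefl and Dpysl3, neuronal cytoskeleton genes, were called higher at 0.68, 0.80 and 2.11 log2, and each call was lost in at least 4 of the 5 fits that left out 1 pool (0.59 to 0.84, 0.69 to 0.93 and 1.77 to 2.52), Tubb3 and Dpysl3 without any but Ngn3Cre 24 and Nefl without any pool.

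The largest differences that held in every pool lay mostly outside these lists. Acsl1, an acyl-CoA synthetase, was at 97.0, 126, 131, 288 and 273 CPM in the class and at 49.4, 3.86, 12.6, 34.0 and 19.6 CPM in precursors (3.19 ± 0.43 log2, edgeR adjusted p = 0.00261). The uncharacterised gene 4933415A04Rik was at 243, 227, 106, 73.9 and 120 CPM against 46.7, 4.83, 9.99, 20.2 and 10.7 CPM (3.22 ± 0.41, adjusted p = 0.00199). In both, all class pools stood above all precursor pools, but with a Fev limit of 20 CPM for both classes the difference of Acsl1 was 1.07 and did not pass. Aldh1b1, an aldehyde dehydrogenase of pancreatic progenitors, was at 26.1 CPM against 2.47 (4.60 ± 0.82, adjusted p = 0.017; 4.09 to 5.39, lost without HZ 24, Ngn3Cre 21 or Ngn3Cre 24). Rsad2 (3.90 log2), Dhrs3 (3.77) and Lrrn2 (3.71) were the other large ones; the Dhrs3 call was lost without HZ 21 or Ngn3Cre 24 (3.34 to 4.27) and the Lrrn2 call without Ngn3Cre 21 or Ngn3Cre 24 (3.24 to 4.33). On the lower side stood AI467606 (0.938 against 27.6 CPM, -6.30 ± 0.95, adjusted p = 0.00608), Cryba2, a crystallin-family gene (26.1 ± 16.5 against 146 ± 44.9 CPM, -2.61 ± 0.27, adjusted p = 0.000719), Lrpprc, a mitochondrial RNA-binding protein (206 ± 144 against 944 ± 297 CPM, -2.33 ± 0.28, adjusted p = 0.00117), and Sphkap (-2.22 ± 0.28). Tmem27, Fbxo2 and Myl9 completed the lower side at -2.49, -2.11 and -2.16 log2; the calls were lost without Ngn3Cre 21 (Tmem27, -2.89 to -2.09), without Ngn3Cre 21 or Ngn3Cre 27 (Fbxo2, -2.42 to -1.95), and without any but HZ 21 (Myl9, -2.63 to -1.92). Whether the difference between the classes itself differed between reporters was tested with an interaction term in edgeR, which called 0 of 13641 genes, with 461 at an unadjusted p under 0.05. DESeq2 was not run for that term.

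**Figure D4:**
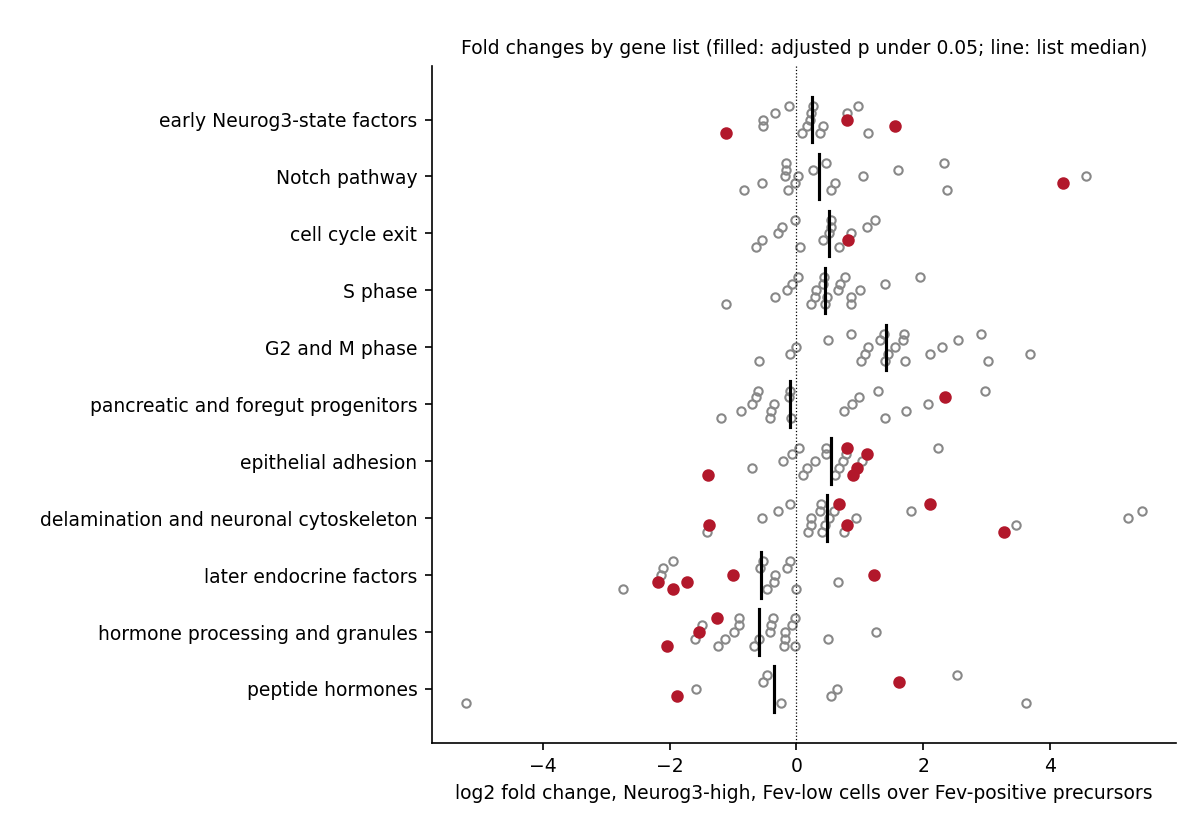
Log2 fold changes of Neurog3-high, Fev-low cells over Fev-positive precursors for the tested genes of each list (x axis), with genes past the edgeR threshold filled and the list median as a line; genes with no read in 1 class, such as Gip, are not drawn. The granule list (median -0.60) and the later endocrine factors (-0.56) lie mostly to the left, and the list of the G2 and M phases (1.42) to the right with no filled point.

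Markers of other cell types were measured beside these results. The summed levels per pool of the class and of precursors were 20.0 to 73.1 and 19.4 to 509 CPM for 10 mesenchyme genes, 0.874 to 98.8 and 0 to 4.62 CPM for 8 endothelial genes, 1.89 to 17.1 and 3.86 to 19.4 CPM for 9 blood genes, and 50.1 to 1223 and 17.9 to 142 CPM for 8 hepatic genes. The highest endothelial and hepatic sums of the class were both in HZ at 18 somites, a pool that the comparison with precursors does not use. The 12 neural and neural crest markers summed to 183 to 479 and 337 to 586 CPM, and among them Ret was at 10 CPM or more in 126 members and Gfra3 in 104. The defining crest genes Sox10 and Foxd3 were at that level in 7 and 8 members, and Neurog2 in none.

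Against Pdx1-positive, Neurog3-low progenitors, the class was higher in the Notch ligands Dll1, Dll3 and Dll4 and the cell-cycle inhibitor gene Cdkn1a. Endocrine regulators such as Insm1, Isl1 and Pax6 were higher too, and Sox9, Hes1 and genes of cell division were lower. Pdx1 encodes the homeobox factor of the pancreatic and duodenal field. It was at 10 CPM or more in 5 of 14 members of HZ at 18 somites and in 3 of 45 at 21 somites. Whether members arose from such progenitors was not tested. Only HZ at 18 somites (14 members, 6 progenitors) and at 21 somites (45 and 7) had enough cells of both classes, which leaves 1 residual degree of freedom, so that the spread comes largely from other genes. Of 12175 genes tested, 494 were higher (4.06%) and 291 lower (2.39%), 6.45% in all. Fitted without the pool term, the counts were 84 and 13, and with pools of at least 2 cells of each class they were 260 and 128. Of the genes described below, Dll1, Notch2, Mki67, Cdx2 and Grin2b lost the call in both of these fits, Hes1, Mfng and Ghrl in the first and Dll4 in the second, whereas Sox9, Cdkn1a, Btg2, Insm1, Isl1, Pax6 and Prox1 passed in both. As description, Neurog3 was at 435 and 435 CPM in the class and at 1.81 and 0.424 CPM in progenitors, Enc1 at 2117 and 1392 against 9.02 and 8.69 CPM, Neurod1 at 155 and 317 against 1.20 and 2.33 CPM, and Pax4 at 79.8 and 134 CPM against no read.

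Ligands and receptor of the Notch pathway lay on opposite sides, with 6 of 17 genes higher and 3 lower. Dll1 was at 152 and 151 CPM in the class at 18 and 21 somites, and at 45.7 and 30.5 CPM in progenitors (2.03 ± 0.49 log2, edgeR adjusted p = 0.00132). Dll4, at 51.1 and 47.4 CPM, had no read in progenitors and was at least 130-fold higher with the floor of 3 reads. Dll3, at 179 and 288 CPM, had 5506 reads against 3, a ratio of 680 with a counting interval of 233 to 3298. Mfng, a glycosyltransferase that modifies Notch, was at 254 and 264 CPM against 0 and 7.85 CPM (6.51 ± 0.59, adjusted p = 3.28e-25). Lower were Hes1, at 73.0 and 11.2 against 168 and 214 CPM (-2.71 ± 0.53, adjusted p = 1.74e-05), and the receptor gene Notch2, at 118 and 48.0 against 349 and 233 CPM (-1.91 ± 0.42, adjusted p = 0.000275). Neither Hes1 nor Notch2 overlapped between the classes. With DESeq2 the Dll4 call was lost.

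Cell-cycle genes divided in the same way. Of 15 genes of cell-cycle exit, 5 were higher and none lower, among them Btg2 at 671 and 997 CPM against 21.1 and 13.6 CPM (5.61 ± 0.45 log2, edgeR adjusted p = 5.08e-33) and Cdkn1a at 1601 and 1389 against 195 and 207 CPM (2.90 ± 0.37, adjusted p = 7.13e-13). Gadd45g, a growth-arrest gene, was at 300 and 319 against 14.7 and 12.1 CPM (4.55 ± 0.49, adjusted p = 5.43e-18). Of 22 genes of the G2 and M phases 11 were lower, all 22 had a negative difference, and the median was -1.69, beside 0.086 over all genes tested. Of 20 S phase genes 7 were lower. Mki67 was at 29.6 and 13.8 CPM against 291 and 132 CPM (-3.26 ± 0.49, adjusted p = 4.23e-09). It was found in 15 of 143 members and in 34 of 47 progenitors of all genotypes, 24 of which were HM cells, whereas the class holds no HM cell.

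Of the early Neurog3-state factors 8 of 15 were higher and 1 was lower, and of the later endocrine factors 8 of 16 were higher and none lower. Insm1 was at 260 and 382 CPM against 15.0 and 6.36 CPM (5.00 ± 0.51 log2, edgeR adjusted p = 2.84e-20). Myt1, a zinc-finger factor, had 2135 reads against 1, a ratio of 791 with a counting interval of 142 to 31260. Isl1 was at 292 and 845 against 7.52 and 0.848 CPM (7.19 ± 0.53, adjusted p = 5.16e-38) and Pax6 at 65.7 and 335 against 2.71 and 2.12 CPM (6.03 ± 0.63, adjusted p = 4.54e-19), in both without overlap. Granule genes were higher for 12 of 18, lower for none and positive for all 18, among them Chgb (45.6 and 190 CPM against no read, at least 386-fold) and Syt13, a synaptotagmin (308 and 312 against 2.71 and 3.82 CPM). With DESeq2 the Chgb call was lost. Hormone genes were higher for 4 of 10, with Ghrl at 985 and 2409 against 125 and 1488 CPM (1.84 ± 0.37, adjusted p = 3.82e-05), where the 2 classes overlapped across stages.

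Progenitor factors were lower for 6 of 19 and higher for 1, with a median of -1.60. Sox9 was at 49.2 and 56.7 CPM against 350 and 577 CPM (-3.08 ± 0.41 log2, edgeR adjusted p = 2.57e-11), and it was found in 47 of 143 members and 45 of the same 47 progenitors. Cdx2, the homeobox factor of the intestine, was at 5.97 ± 4.54 against 85.2 ± 4.31 CPM (-4.05 ± 0.73, adjusted p = 2.48e-06). The higher one was Prox1, a homeobox factor of liver and pancreas, at 409 and 445 against 89.0 and 84.0 CPM (2.32 log2, adjusted p = 8.32e-07). Of 21 epithelial adhesion genes 1 was higher and 3 lower. The higher one was Krt7, at 1676 and 1754 against 403 and 390 CPM (2.13 ± 0.35, adjusted p = 1.71e-07), and Epcam (-0.22, adjusted p = 0.896) and Cdh1 (0.16, adjusted p = 0.954) did not pass. Delamination and neuronal cytoskeleton genes were higher for 11 of 21, among them Tubb3 at 903 and 1085 against 2.41 and 17.4 CPM. The largest differences outside the lists were Btbd17 (at least 500-fold higher), Ankrd2 (at least 317-fold), Plk3 (at least 231-fold) and, on the lower side, the glutamate-receptor gene Grin2b, with 3 reads against 383, a ratio of 345 lower with a counting interval of 117 to 1678. The Ankrd2 and Plk3 calls were lost with DESeq2. The neural list passed for 3 of 5 genes, with a summed level of 183 and 319 CPM in the class and 12.0 and 34.6 CPM in progenitors, and the endothelial and hepatic sums of HZ at 18 somites (98.8 and 1223 CPM) stood against at most 3.01 and 268 CPM. Without cells with 3 or more neural markers 478 genes were higher and 335 lower, and 679 of the 785 calls were kept. The part of the endothelial and hepatic reads in the result was not tested.

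Within the class, Ngn3Cre and HZ cells were compared at the 2 stages with enough cells of both, 21 and 24 somites, with 57 and 58 cells. This asks whether the same gate caught the same cells in embryos with the Cre reporter and in embryos that lack 1 functional Neurog3 allele. By the rule's own gene, Neurog3 was at 435, 435 and 371 CPM in the HZ pools of 18, 21 and 24 somites and at 1058, 706 and 1470 CPM in the Ngn3Cre pools of 21, 24 and 27 somites, without overlap, as a description. Of 13224 genes tested with the somite number as a factor and 1 residual degree of freedom, 8 were higher in Ngn3Cre (0.0605%) and 39 lower (0.295%), 0.355% in all. The genotypes are also different crosses with different reporters, so that a litter or a sort cannot be told apart from the genotype. None of these calls remained with the Neurog3 limit at 200 CPM, without the cells with 3 or more neural markers, without the somite number in the fit, or with pools of at least 4 cells (0 higher and 0 lower in each, with 605, 565, 830 and 415 genes at an unadjusted p under 0.05). All 47 genes kept their direction in those 4 fits, but the fits reuse cells of the main fit, so this is no independent support.

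The lower genes in Ngn3Cre included 3 genes of the progenitor list, Tcf7l2, Onecut2 and Sox9. The metallothionein gene Mt1, which buffers metals, was at 297 and 293 CPM in HZ at 21 and 24 somites and at 78.2 and 35.2 CPM in Ngn3Cre (-2.53 ± 0.31 log2, edgeR adjusted p = 0.000788), and the pools outside the fit followed, with 372 CPM in HZ at 18 somites and 35.8 CPM in Ngn3Cre at 27 somites. Tcf7l2, a Wnt pathway factor, was at 232 and 337 against 67.9 and 100 CPM (-1.81 ± 0.27, adjusted p = 0.00288), with 368 and 54.2 CPM in the outside pools. Notch2 was at 48.0 and 83.2 against 9.22 and 17.7 CPM (-2.36 ± 0.45, adjusted p = 0.0184). In none of the 3 did the pools of the fit overlap. Sox9, at 56.7 and 324 against 30.8 and 69.7 CPM, also passed (-1.60 ± 0.35, edgeR adjusted p = 0.0451), but its groups overlapped and HZ at 24 somites stood apart. In that pool only 4 of 13 cells had Sox9 at 10 CPM or more, with a median of 8.48 CPM and a maximum of 2432 CPM. With Onecut2 and Tcf7l2, Sox9 made up the 3 of 21 progenitor genes that were lower, against none higher and a median of -0.70, beside 0.018 over all genes tested. Flrt2, a membrane protein of cell adhesion, was at 18.8 and 78.2 against 3.35 and 5.60 CPM (-3.19 ± 0.58, adjusted p = 0.0112). Bcl2, an inhibitor of cell death, was at 61.5 and 71.9 against 10.4 and 7.69 CPM in the fit (adjusted p = 0.00583), yet at 105 CPM in Ngn3Cre at 27 somites, and Rab31 likewise had 153 CPM there against 41.6 and 20.6 CPM in the fit's Ngn3Cre pools.

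On the higher side, 2010107G23Rik, the gene that followed Neurog3 most closely among the cells, was at 95.8 and 66.7 CPM in HZ and at 279 and 270 CPM in Ngn3Cre (1.73 ± 0.28 log2, edgeR adjusted p = 0.00583), with 100 CPM in HZ at 18 somites and 331 CPM in Ngn3Cre at 27 somites. Within the stage of 21 somites its rho with Neurog3 was 0.39 in Ngn3Cre cells and 0.0020 in HZ cells. Igsf8, an immunoglobulin-family membrane protein, was at 96.2 and 90.7 against 332 and 239 CPM (1.54 ± 0.27, adjusted p = 0.00966). Both stood apart by genotype in every pool of the class. Rps26-ps1 (1.62 log2, adjusted p = 0.0153) is a ribosomal pseudogene whose reads can belong to its parent gene. Enc1 (1177 ± 303 CPM in HZ and 704 ± 205 in Ngn3Cre, adjusted p = 0.089), Neurod1 (310 against 488 CPM, adjusted p = 0.491), Pax4 (116 against 189 CPM, adjusted p = 0.628), Dll1 (adjusted p = 0.39), Cdkn1a (1366 against 1538 CPM, adjusted p = 0.9998) and Ghrl (5181 against 8237 CPM, adjusted p = 0.15) did not pass.

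**Figure D5:**
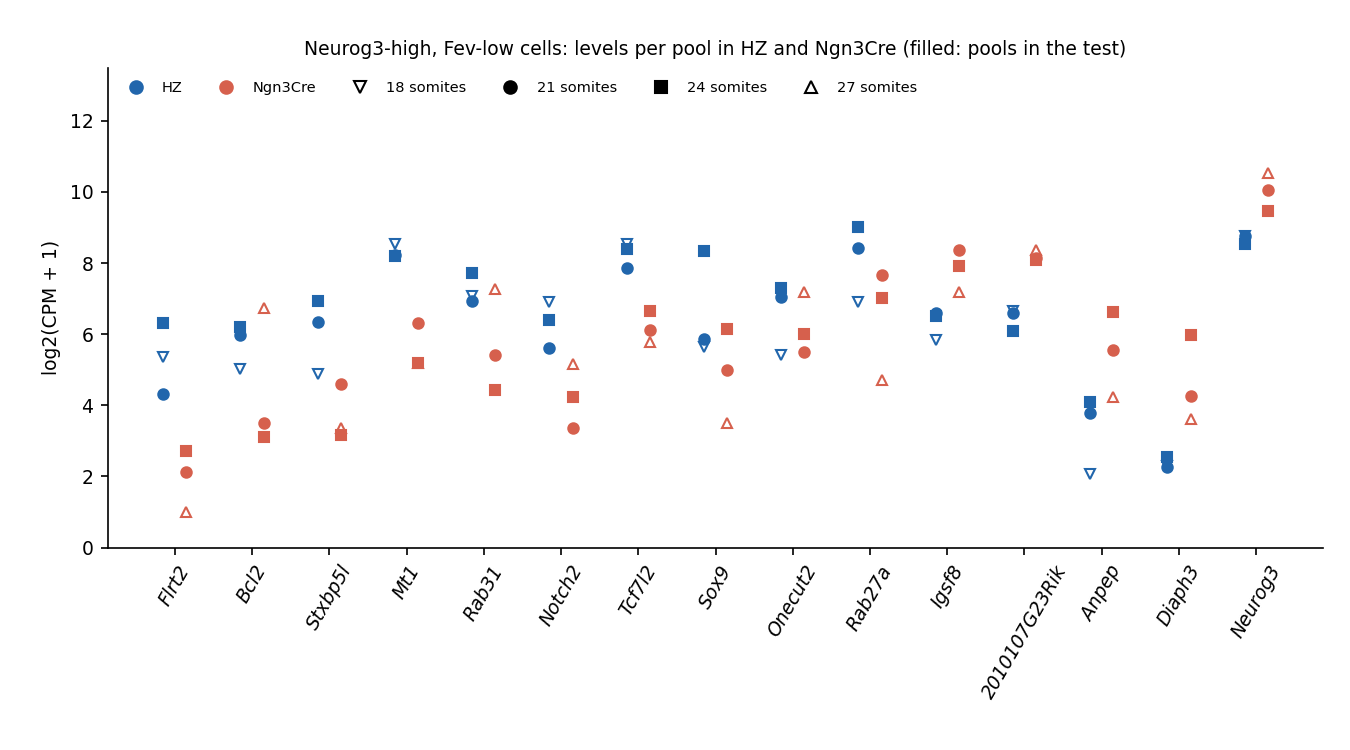
Levels of 14 genes of the comparison of genotypes, and of Neurog3, per pool of Neurog3-high, Fev-low cells (y axis, log2(CPM + 1) of summed reads), with the colour for the genotype, the symbol for the somite number and filled symbols for the 4 pools in the test. Mt1 and Tcf7l2 are lower and 2010107G23Rik and Igsf8 higher in all 3 Ngn3Cre pools than in all 3 HZ pools, while Bcl2 and Rab31 overlap through Ngn3Cre at 27 somites.

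Across stages, the members changed little that could be told from the spread between pools. Over the 6 pools with the genotype as a factor, edgeR called 0 of 13361 genes (0% in either direction) for a slope with somite number, with 742 at an unadjusted p under 0.05, and DESeq2 called 54 higher and 36 lower. All 22 genes of the G2 and M phases had a negative slope, with a median of -0.45 log2 per somite beside -0.0089 over all genes tested, and none passed. Their summed level was 1608 CPM in HZ at 18 somites, 482 and 170 CPM at 21 somites in HZ and Ngn3Cre, 183 and 858 CPM at 24 somites, and 147 CPM in Ngn3Cre at 27 somites. The 18-somite pool was highest, and the 24-somite Ngn3Cre pool went against a steady fall. Isl1 was at 292 CPM in HZ at 18 somites and between 845 and 1570 CPM in the other 5 pools (0.15 log2 per somite, adjusted p = 0.912). Enc1 in HZ was at 2117, 1392 and 963 CPM at 18, 21 and 24 somites, but at 849, 559 and 1272 CPM in Ngn3Cre at 21, 24 and 27 somites, so that the genotypes did not share an order.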

How the data were processed

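Single mouse endoderm cells were profiled by Smart-seq3xpress, with 1 cell per sample and 830 samples. The authors deposited 1 table of read counts per gene and cell, whole numbers that are not scaled, and 1 table of TPM (length-scaled transcript abundance) for the same cells. The submitters' processing notes list the tools HISAT2 2.1.0, Trimmomatic 0.39 and FastQC 0.11.9, and give GRCm38 and mm10 as builds. Not given in the sources used here are the program that counted reads, its annotation, its use of strand or molecular identifiers, and any removal of cells or doublets. Reads of overlapping, antisense or near-identical genes can therefore not be told apart. Of 26313 gene symbols listed, 4786 had no read, and no 2 cells had identical counts. Positions come from GENCODE vM21 on GRCm38 and promoter windows from RefSeq on GRCm38.p6.

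From the deposited counts, CPM per cell gave the classes; the deposited TPM entered only an alternative gate. Counts of class cells were summed per genotype and somite number, and pools of at least 5 cells entered edgeR 4.0.16 (R 4.3.3): filterByExpr, TMM scaling, glmQLFit and glmQLFTest, with Benjamini-Hochberg adjustment over all genes tested and a threshold of 0.05. Summed samples held from 3108721 to 20603770 reads. The comparison with Fev-positive precursors and that with progenitors had the pool as a block, that of genotypes the somite number as a factor, and the slope the genotype. Standard errors are the log2 fold change divided by the square root of F. Cell numbers in titles do not pair cells across groups. Fitted values of genes with no read in 1 class are replaced by bounds from a floor of 3 reads over the group, and genes with 1 to 3 reads by ratios with 95% counting intervals. Exact (Clopper-Pearson) binomial intervals are used for shares of cells. No doublet caller was run. The count tests were run on simulated counts with known changes, drawn independently around a common mean per gene. That check asked only for the right direction and size of the changes. It set no limit on false calls and held no differences between pools and no mixture of cells.

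The members, the markers, the 17 gene lists and the comparisons were chosen with earlier results of these data known. Genes named are the 8 largest differences each way (5 for the genotypes) past the threshold whose mean reached 20 CPM, holding in every pool for the classes, the 5 smallest p-values of each list, and a set of landmark genes. Pool totals of all marker lists and the alternatives (DESeq2 1.42.0, no filter on low counts, other gates, cells thinned to 100000 reads, 1 pool left out, no block, no TMM) were computed for each comparison they apply to. Results for some genes are not reported here.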

Additional observations from a re-analysis of the deposited data

Results flagged for a closer look

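In 44 groups of 4 or more pools, each 1 gene in 1 class, 7 held a pool farther from the others than Dixon's 95% limit allows; chance alone gives about 1 in 20. Sox9 reached 324 CPM in the Neurog3-high, Fev-low cells of HZ at 24 somites, where the next pool had 69.7 CPM. Of the 13 cells summed there, 4 had Sox9 at 10 CPM or more, and the maximum was 2432 CPM. The Fev-positive precursors of the same pool also had high Sox9, with 366 CPM against 30.0 CPM in the next pool. Their Hes1 was at 27.0 CPM, with 4.17 CPM next, and their Btg2, at 616 CPM, was the lowest, with 1050 CPM next. Among Neurog3-high, Fev-low cells, Hes1 stood apart in HZ at 18 somites (73.0 CPM, next 25.1) and Btg2 in Ngn3Cre at 27 somites (1633 CPM, next 997). Dll1 stood apart in the Fev-positive precursors of Ngn3Cre at 21 somites (20.8 CPM, next 6.36).

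The cells under 100000 reads, which entered no comparison, also held cells that meet the limits. Of 117 such cells 13 met the same limits for Neurog3, Fev and Gcg, which is 11.1% (95% exact binomial interval 6.05 to 18.3). A count of 0 would allow up to 2.56%. The limits are not the same test at such depth, since in the shallowest cell, with 1400 reads, 1 read of Neurog3 would already pass 100 CPM.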

How the results depend on the processing

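Against Fev-positive precursors (71 genes higher, 52 lower), DESeq2 called 354 and 188, edgeR without a filter on low counts 231 and 149, and without the replicate block, that is, with pools unpaired, 39 higher and 37 lower. Leaving out 1 pool gave 23 to 48 higher and 27 to 46 lower. Without cells with 3 or more neural markers 7 were higher and 9 lower, from 6 samples. Of the 123 genes, 121 were kept by DESeq2 and 47 to 78 when 1 pool was left out. Against progenitors (494 and 291), the fit without the replicate block gave 84 and 13, and pools of at least 2 cells 260 and 128. Between genotypes (8 and 39), DESeq2 gave 28 and 105, no filter 43 and 126, a Fev limit of 20 CPM 23 and 102 and thinned cells 30 and 128. There were 0 and 0 with Neurog3 at 200 CPM, without neural-marker cells, with pools of at least 4 cells, and with no replicate block by somite number. For the slope (0 and 0), DESeq2 gave 54 and 36, no filter 78 and 65, thinned cells 1 higher, and leaving out 1 pool 0 to 0 higher and 0 to 1 lower (1 without Ngn3Cre 21 or Ngn3Cre 27). The cause was not tested. No paired analysis was possible because the numbers in the titles count cells and pair none across groups; the blocks here are pools. Leaving out a pool could not be fitted for progenitors or genotypes, where no residual degrees of freedom remain.

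Among the genes named, these turned sign. Against precursors, Btg2 (-0.026) ran from -0.17 to 0.090 when 1 pool was left out, positive without HZ 21, Ngn3Cre 21 or Ngn3Cre 24, and was at 0.051 with Neurog3 at 200 CPM, 0.12 with Fev at 20 CPM and 0.0062 in thinned cells. Between genotypes without neural-marker cells, Enc1 was at 0.21 and Pax4 at -0.024. The slope of Mki67 was 0.29 with pools of at least 4 cells. Myl9 against precursors, the only one of them that had passed, was at 0.55 without neural-marker cells. Of all 785 genes called against progenitors, the direction was kept by 781 of 785 with pools of at least 2 cells, 779 of 781 fitted without neural-marker cells and 781 of 782 with Neurog3 at 200 CPM, and by all that were fitted in the other alternatives. The number of members stayed between 110 and 159 under 7 other gates.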

Other observations

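Reads of other islet hormone genes were scattered over Neurog3-high, Fev-low cells. Ins2, an insulin gene, was at 10 CPM or more in 68 of 143 cells with a maximum of 1261 CPM, and Ins1, the other insulin gene, in 36 with a maximum of 335 CPM. Iapp, which encodes the peptide that beta cells release with insulin, was found in 27 cells, and Sst, the somatostatin gene of delta cells, in 2. By pool Ins2 was at 27.7, 77.4 and 126 CPM in HZ at 18, 21 and 24 somites and at 0.146, 50.4 and 35.1 CPM in Ngn3Cre at 21, 24 and 27 somites. Iapp was at 1.75, 13.1, 22.6, 12.1, 15.4 and 91.0 CPM in the same order. Over all these pools the genotypes overlapped in both genes. At the stages they share, 21 and 24 somites, Ins2 was higher in HZ, at 77.4 against 0.146 CPM and 126 against 50.4 CPM. Iapp was close at 21 somites (13.1 against 12.1 CPM) and at 22.6 against 15.4 CPM at 24 somites.

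Pdx1 and Cdx2, factors of the pancreatic and duodenal and of the intestinal field, were both at 10 CPM or more in 6 of 143 cells (4.20%, 1.56 to 8.91). Of the 47 cells with Sox9 at that level, 21 were among the 51 cells with 100 to 300 CPM of Neurog3. Another 19 were among the 59 cells with 300 to 1000 CPM, and 7 among the 33 with 1000 CPM or more. These ranges held 36, 36 and 5 HZ cells, and the part of the genotype was not tested.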
